A study of Arabidopsis thaliana with 12 samples.

Results

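The developmentally regulated GTP-binding proteins (DRG) of Arabidopsis are a small family, measured here gene by gene. The members were the 3 loci AT1G72660, AT1G17470 and AT4G39520, taken by locus identifier from a deposited table of 27715 genes. The family was selected on values of these same libraries, namely its expression levels and their change with heat. Its values are therefore given as a description. No p-value of a member is printed, and the calls of the members are listed without anything being read from them. The deposited annotation calls AT1G17470 a developmentally regulated G-protein 1, AT1G72660 a P-loop nucleoside triphosphate hydrolase and AT4G39520 a GTP-binding protein. The numbering of the family differs between sources, and locus identifiers are used throughout.

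DRG proteins are GTPases of the Obg group that are conserved from archaea to plants and animals and bind ribosomes. In budding yeast and human cells each works with a partner protein that keeps it stable, called a DRG family regulatory protein (DFRP), and in yeast the DRG proteins help ribosomes that have paused on a message to move on. One of the yeast partners, Gir2, also binds Gcn1, a protein that senses collided ribosomes.

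Polyadenylated RNA was sequenced from flowers of stages 1 to 12 in 12 libraries, 3 in each of 4 groups, with 9 flowers pooled in each library. The groups were XBAT31 mutant flowers after 3 hours at 38 °C, XBAT31 mutant flowers at 22 °C, wild-type flowers after 3 hours at 38 °C and wild-type flowers at 22 °C. The protein made from XBAT31 carries ankyrin repeats and a RING finger, a domain of many E3 ubiquitin ligases. The labels name neither the mutant allele nor the number of mutant lines, and they do not tell whether the replicates came from separate plants or days, so the errors given measure the spread between these libraries, which may be technical.

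XBAT31 itself was read at 50.4 ± 3.45 FPKM in mutant and 109 ± 1.46 FPKM in wild-type flowers at 38 °C, and at 51.8 ± 5.64 FPKM in mutant and 96.2 ± 0.782 FPKM in wild-type flowers at 22 °C (SD, n = 3 each). FPKM is the fragment number scaled to transcript length and library depth. XBAT31 in the mutant was 46.4% of its wild-type level at 38 °C and 53.8% at 22 °C, and both differences passed in edgeR's quasi-likelihood test with Benjamini-Hochberg adjustment (adjusted p = 6.98e-05 at 38 °C and 8.61e-04 at 22 °C). Library totals ran from 44983198 to 63088433 counts. Replicate 2 of the mutant at 22 °C, replicate 1 of the mutant at 38 °C and replicate 2 of the wild type at 38 °C stood apart on the second principal component, which held 14.6% of the variance. The main ratios and calls are also given without these 3 libraries. The lists of pollen, photosynthesis and tapetum markers were read in every library, with 1 pollen gene listed at 0 in 1 library of the wild type at 38 °C.

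AT1G72660 lies on the plus strand of chromosome 1 at chr1:27353791-27356670 (TAIR10) and spans 2880 bases. AT1G17470 lies on the same strand at chr1:6002912-6006405 and spans 3494 bases. AT4G39520 lies on the minus strand of chromosome 4 at chr4:18370968-18374204 and spans 3237 bases. In the table no other gene overlapped any of the 3. The neighbourhoods of the first pair were alike: each stood between a TRF-like gene on the same strand (TRFL6 before AT1G72660, TRFL3 before AT1G17470) and an IQ-domain gene on the opposite strand (IQD8 after AT1G72660, IQD7 after AT1G17470). The gaps were 48 bases before and 12 after AT1G72660, and 195 before and 55 after AT1G17470.

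Sequences were read from RefSeq's TAIR10.1 assembly by its own annotation. AT1G72660 and AT1G17470 each had 11 coding exons and 1200 coding bases, and all 11 exons had equal lengths in the same order. Their coding sequences were identical at 1079 of 1200 positions (89.9%) with no gap. Of the 121 differences, 101 (83.5%) fell on the third position of a codon, 16 on the first and 4 on the second. Exon 5 was the most alike (96.5% of 57 bases) and exon 6 the least alike (84.0% of 75 bases). AT4G39520 had 10 coding exons and 1110 coding bases, none of its exons matched those of the pair in order, and 57.1% of aligned columns were identical with AT1G72660 and 57.4% with AT1G17470.

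**Figure D1:**
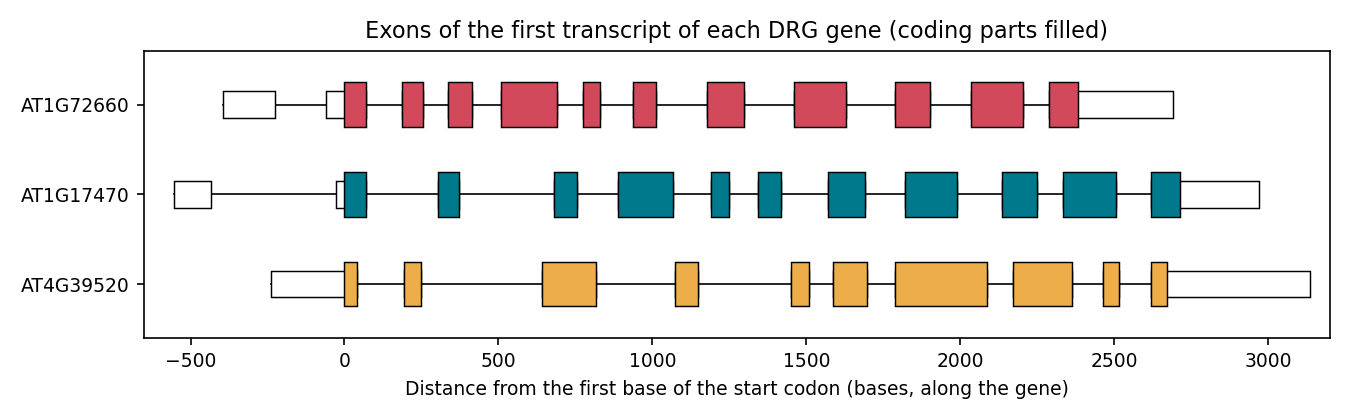
Exons of the first annotated transcript of each gene (rows), drawn to scale by distance in bases from the start codon; filled boxes are coding, open boxes untranslated and lines introns. The 11 coding exons of AT1G72660 and AT1G17470 follow each other in the same order and size with introns of other lengths, and AT4G39520 has 10.

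The stretch that codes for the P-loop, the part of a GTPase that holds the phosphates of GTP, is shown for the 3 members. It is given 5′ to 3′ with bases that differ from AT1G72660 in capitals, 3 in AT1G17470 and 5 in AT4G39520. It covers coding bases 205 to 228 in the first pair and 214 to 237 in AT4G39520. All 3 stretches code for the same amino acids. AT4G39520 was closer to AT1G72660 here than over the whole coding sequence (57.1% of aligned columns identical). The stretch thus does not measure how far the members are apart.
AT1G72660: ggatttccaagtgttggaaagtct
AT1G17470: ggatttccTagtgtCggaaagtcC
AT4G39520: ggatttccTTCGgttggaaaAtct

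The likeness of AT1G72660 and AT1G17470 bears on their values, since reads that match both could be given to either. The longest run shared by the 2 coding sequences was 53 bases, at coding bases 253 to 305 of both, and is shown as the longest stretch in which a read could not tell them apart.
AT1G72660 and AT1G17470: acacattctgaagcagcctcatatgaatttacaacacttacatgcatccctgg
Any window of 150 bases, the length of 1 read, held between 8 and 22 differences (median 14). With AT4G39520 the longest shared run was 13 bases for AT1G72660 and 17 for AT1G17470. How reads with several matches were counted is not stated.

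Heat shock factors bind inverted repeats of the unit GAA, written here as GAANNTTC and TTCNNGAA for 2 units. In the 300 bases before the annotated gene start, either form on either strand stood in 19.3% of 27438 genes, and a run of 3 units in 0.485%. AT1G72660 held neither form in this window. AT1G17470 held GAAATTTC at positions -203 to -196 from its start, which lie within TRFL3, and TTCACGAA at positions -51 to -44. The 155 bases between TRFL3 and AT1G17470 (chr1:6002733-6002887, plus strand) are shown because they hold the second of these matches, whose units are in capitals.
AT1G17470: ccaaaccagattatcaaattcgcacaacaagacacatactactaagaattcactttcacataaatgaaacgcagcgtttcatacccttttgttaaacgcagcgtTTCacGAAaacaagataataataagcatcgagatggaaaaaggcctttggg
Before AT1G72660 the gap was 16 bases in this assembly, and the 412 bases from the end of TRFL6 to the start codon held no match. The absence of a match says only that these letters are not in this window.

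AT1G72660, a P-loop GTPase, was read at a low level in flowers at 22 °C and at a much higher one at 38 °C. In mutant flowers it was read at 51.0, 46.3 and 37.9 FPKM at 38 °C, against 1.37, 1.44 and 1.46 FPKM at 22 °C. In wild-type flowers it was read at 71.4, 83.2 and 67.3 FPKM at 38 °C, against 1.59, 1.38 and 1.26 FPKM at 22 °C. The groups did not overlap in either genotype, and the lowest heated library was at 26.0 times the highest unheated one in the mutant and at 42.4 times in the wild type. The ratio of means was 31.7 in the mutant and 52.5 in the wild type. Counts at 22 °C were 108 to 131 in the mutant and 116 to 135 in the wild type, so the gene was above the minimum count of 10 in each library and did not enter the fit through the heated groups alone.

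AT1G17470, the paralogue with the same exon plan, was well read at both temperatures. In mutant flowers its level was 61.8, 59.7 and 64.7 FPKM at 38 °C, against 47.9, 48.2 and 46.4 FPKM at 22 °C. In wild-type flowers it was 76.9, 72.2 and 71.9 FPKM at 38 °C, against 56.1, 47.7 and 44.8 FPKM at 22 °C. Every heated library was above every unheated one within each genotype, by a ratio of means of 1.31 in the mutant and 1.49 in the wild type.

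AT4G39520, the most distant member, ran close to AT1G17470. In mutant flowers it was read at 60.7, 56.0 and 57.6 FPKM at 38 °C, against 40.6, 40.9 and 44.7 FPKM at 22 °C. In wild-type flowers it was read at 66.9, 71.1 and 67.7 FPKM at 38 °C, against 43.2, 43.3 and 42.8 FPKM at 22 °C. The groups again did not overlap, and the ratio of means was 1.38 in the mutant and 1.59 in the wild type.

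**Figure D2:**
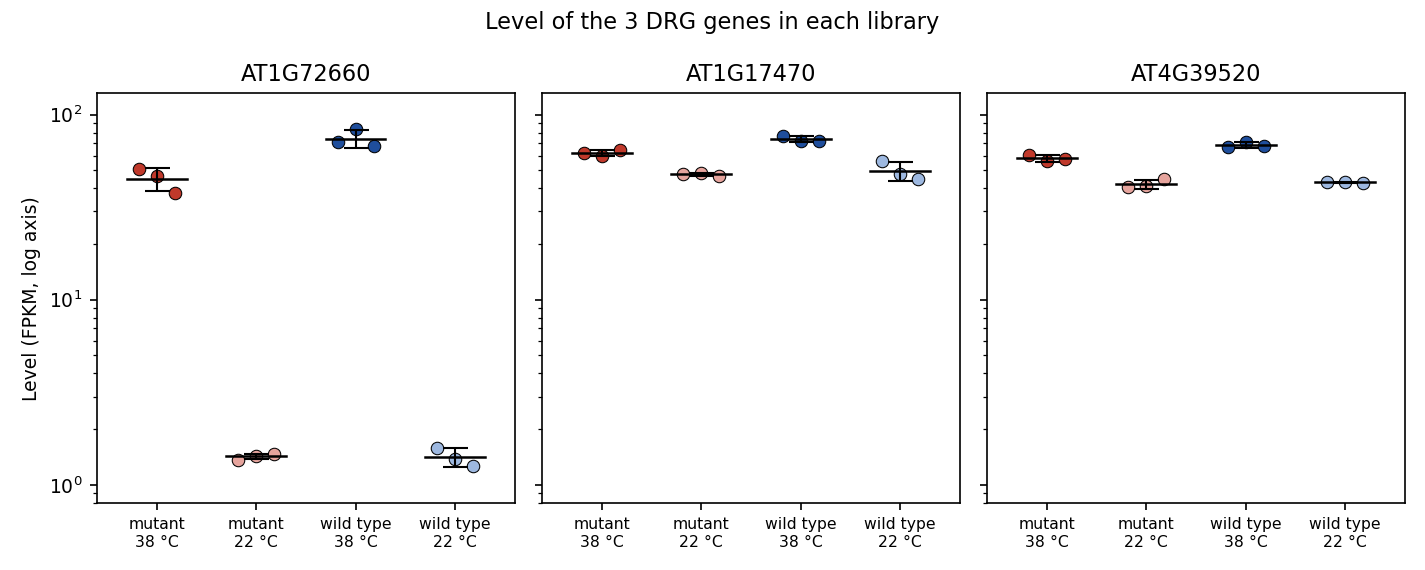
Level of each DRG gene in each library in FPKM on a log axis, with points for the 3 libraries of a group, a line for their mean and bars for the SD. AT1G72660 lies below 2 FPKM in all 6 libraries at 22 °C and at 37.9 FPKM or more in all 6 at 38 °C, while the other 2 genes stay between 40.6 and 76.9 FPKM.

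The order of the members by level per length changed with temperature. At 22 °C it was AT1G17470, AT4G39520 and AT1G72660 in both genotypes, with no overlap between neighbours. In mutant flowers at 38 °C AT1G17470 and AT4G39520 overlapped in their libraries and AT1G72660 lay below both. In wild-type flowers at 38 °C AT1G72660 had the highest mean but overlapped with both other members, being above AT1G17470 in 1 of 3 libraries and above AT4G39520 in 2 of 3, while AT1G17470 lay above AT4G39520 without overlap. By mean level AT1G72660 stood 3164th of 27715 genes in the mutant at 38 °C, against 18827th in the mutant at 22 °C, and 1724th in the wild type at 38 °C, against 19056th in the wild type at 22 °C.

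The summed level of the family was 173, 162 and 160 FPKM in the mutant at 38 °C, against 89.8, 90.5 and 92.5 FPKM in the mutant at 22 °C. Heated wild-type libraries summed to 215, 227 and 207 FPKM, against 101, 92.4 and 88.8 FPKM in unheated wild-type ones. AT1G72660 held 27.2 ± 3.12% of it in the mutant at 38 °C, against 1.56 ± 0.0316% in the mutant at 22 °C, and 34.2 ± 2.25% in the wild type at 38 °C, against 1.49 ± 0.0796% in the wild type at 22 °C (SD, n = 3 each). The gain with heat was thus mostly that of AT1G72660: it made up 58.8% of the 74.3 FPKM gained in the mutant and 59.4% of the 122 FPKM gained in the wild type. AT1G17470 made up 19.6% and AT4G39520 21.6% of the gain in the mutant, and 19.8% and 20.8% of that in the wild type, so the division of the gain was nearly the same in both genotypes.

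**Figure D3:**
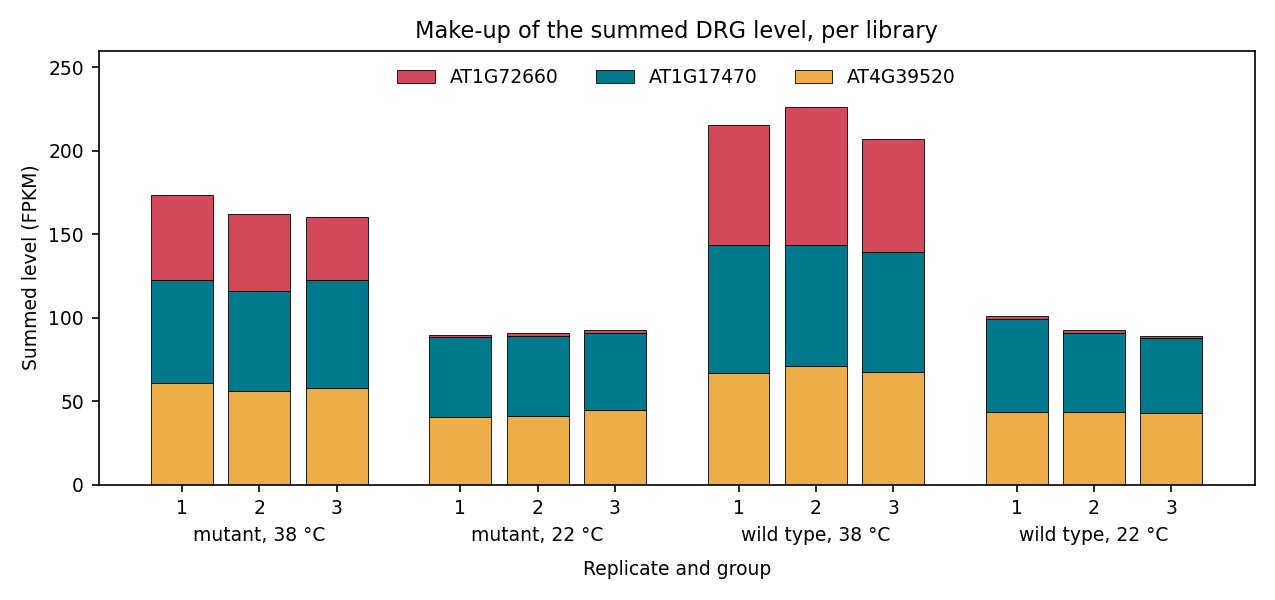
Summed FPKM of the DRG genes in each of the 12 libraries, stacked by gene. The 6 bars at 38 °C reach 160 to 227 FPKM with a visible AT1G72660 layer, and the 6 bars at 22 °C reach 88.8 to 101 FPKM with almost none.

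On the counts, the log2 fold change with heat of AT1G72660 was 4.87 (SE 0.14) in the mutant and 5.61 (SE 0.15) in the wild type, which is 29.2-fold and 48.7-fold. It ranked 132nd of 23585 tested genes in the mutant and 103rd in the wild type. AT1G17470 changed by 0.28 (SE 0.08) in the mutant and 0.48 (SE 0.08) in the wild type, and AT4G39520 by 0.36 (SE 0.06) and 0.57 (SE 0.06). All 3 rose at an adjusted p below 0.05 in edgeR in both genotypes, where 11.3% of all tested genes rose in the mutant and 14.3% in the wild type, and all 3 had heated libraries above unheated ones without overlap, as did 26.1% of genes in the mutant and 27% in the wild type. Since the members were chosen with these values known, nothing is read from the counts.

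In the mutant AT1G17470 no longer passed without replicate 1 or 3 at 22 °C, without replicate 3 at 38 °C, or without the 3 libraries that stood apart, which left 2 of 3 members. On FPKM without those 3 libraries the ratio of means of AT1G72660 was 29.8 in the mutant and 49.3 in the wild type, and those of AT1G17470 and AT4G39520 lay between 1.32 and 1.56, the groups still not overlapping. AT1G72660 then held 26.1% of the family sum in the mutant at 38 °C, against 1.55% at 22 °C, and 32.9% in the wild type at 38 °C, against 1.49% at 22 °C. Scaling on reference genes in place of all genes moved the median of all genes up by 0.25 in the mutant and 0.34 in the wild type, and AT1G17470 then stood at 0.53 and 0.82 and AT4G39520 at 0.61 and 0.92.

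At 38 °C each of the members was lower in mutant than in wild-type flowers. AT1G72660 averaged 45.1 ± 6.65 FPKM in mutant and 74.0 ± 8.23 FPKM in wild-type flowers at 38 °C (SD, n = 3 each). AT1G17470 averaged 62.1 ± 2.54 FPKM in mutant and 73.7 ± 2.78 FPKM in wild-type flowers, and AT4G39520 averaged 58.1 ± 2.39 FPKM in mutant and 68.6 ± 2.27 FPKM in wild-type flowers. The mutant thus had 60.9% of the wild-type level of AT1G72660, 84.2% of that of AT1G17470 and 84.7% of that of AT4G39520, and for each gene every mutant library was below every wild-type one. The family sum was 51.0 FPKM lower in the mutant, of which AT1G72660 made up 56.7%, AT1G17470 22.8% and AT4G39520 20.6%.

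On the counts the log2 difference, mutant minus wild type at 38 °C, was -0.75 (SE 0.12) for AT1G72660, -0.29 (SE 0.08) for AT1G17470 and -0.28 (SE 0.06) for AT4G39520. All 3 fell at an adjusted p below 0.05 in edgeR, as did 5.26% of the tested genes, and 12.3% of genes had mutant libraries below wild-type ones without overlap. AT1G72660 passed whichever library was left out. AT4G39520 passed with 8 of 12 libraries left out in turn and not without replicate 1 or 2 of the wild type or replicate 2 or 3 of the mutant at 38 °C. AT1G17470 passed with 4 of 12 left out and not without any one of the 6 libraries at 38 °C, replicate 2 of the wild type at 22 °C or replicate 1 of the mutant at 22 °C. Without the 3 libraries that stood apart, or with only the groups compared in the fit, AT1G72660 alone passed, and the replicate block and the limma settings lost AT1G17470. Over all 23 alternatives AT1G72660 passed in 23, AT4G39520 in 17 and AT1G17470 in 9. The alternatives reuse the same libraries, and the members were chosen with these values known. Nothing is therefore read from the members' calls here, at 22 °C or in the difference of heat responses. On FPKM without the 3 libraries the mutant stood at 60.7%, 83.6% and 84.4% of the wild type for AT1G72660, AT1G17470 and AT4G39520.

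At 22 °C AT1G72660 averaged 1.42 ± 0.0441 FPKM in mutant and 1.41 ± 0.168 FPKM in wild-type flowers. AT1G17470 averaged 47.5 ± 0.974 FPKM in mutant and 49.5 ± 5.87 FPKM in wild-type flowers, and AT4G39520 averaged 42.1 ± 2.26 FPKM in mutant and 43.1 ± 0.261 FPKM in wild-type flowers (SD, n = 3 each). The libraries of the genotypes overlapped for all 3, where 12.5% of tested genes did not overlap, and the log2 differences were -0.02 (SE 0.14), -0.09 (SE 0.08) and -0.07 (SE 0.06) in that order. None of the 3 passed in edgeR or DESeq2 and none had an unadjusted p below 0.05, where 0.191% of all tested genes passed in edgeR.

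The heat response of the mutant minus that of the wild type was -0.74 (SE 0.18) for AT1G72660, -0.20 (SE 0.11) for AT1G17470 and -0.22 (SE 0.09) for AT4G39520 on the log2 scale. It was below 0 for all 3, where 53.6% of all tested genes were above 0. The difference passed for none of the 3 in edgeR, where 1.59% of all tested genes passed. An unadjusted p below 0.05 was reached by 2 of the 3, and the share of all genes at that threshold was not taken. AT1G72660 passed in DESeq2, as did 1842 of 23585 genes, and in edgeR with scaling on reference genes, as did 457. The 4 simple comparisons share groups with each other and with this difference, so they are not separate evidence.

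**Figure D4:**
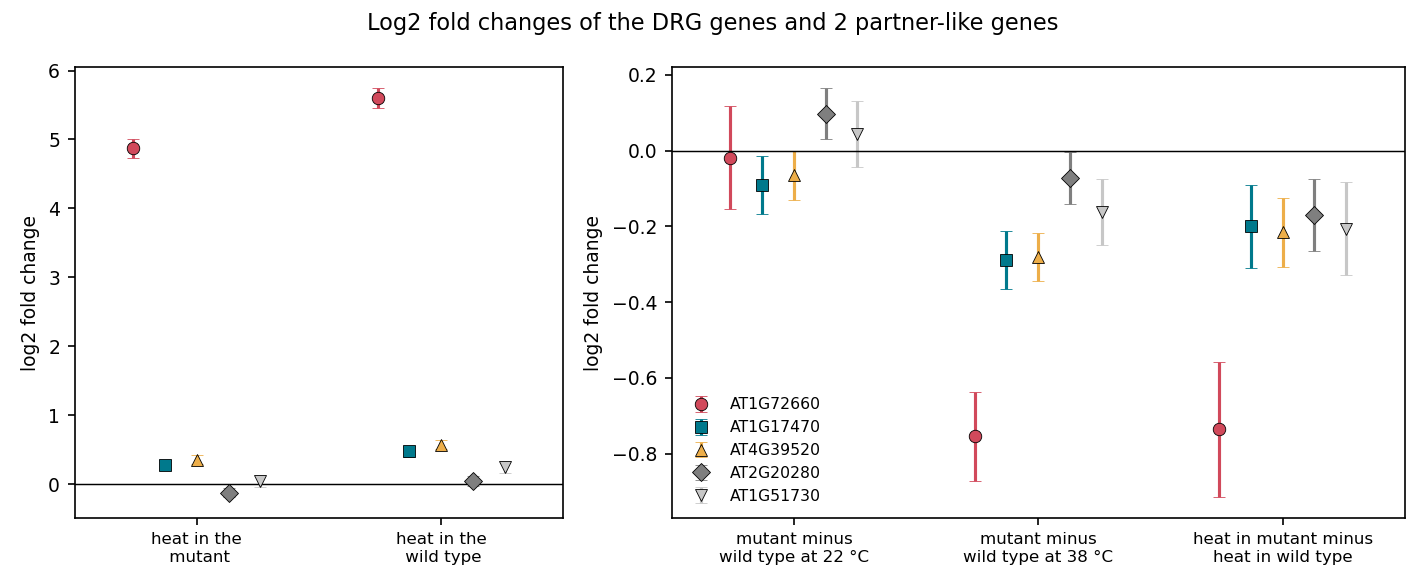
Log2 fold changes of the 3 DRG genes and 2 partner-like genes from edgeR with their SE as bars, for heat in each genotype (left panel) and for mutant minus wild type at each temperature and the difference of the heat responses (right panel, finer scale). AT1G72660 stands near 5 with heat and at -0.75 and -0.74 in 2 of the genotype contrasts, the other points lying between -0.29 and 0.57.

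The markers of other floral cells varied in the same libraries. The summed level of 18 pollen genes ran from 1550 to 5700 FPKM in mutant flowers at 38 °C, against 4680 to 5630 at 22 °C, and from 2630 to 4920 FPKM in wild-type flowers at 38 °C, against 4240 to 8940 at 22 °C. The 14 photosynthesis genes summed to 6260 to 8170 FPKM in the mutant at 38 °C, against 3570 to 7090 at 22 °C, and to 6060 to 7430 FPKM in the wild type at 38 °C, against 5930 to 10300 at 22 °C. The 9 tapetum genes summed to 212 to 229 FPKM in the mutant at 38 °C, against 119 to 252 at 22 °C, and to 161 to 342 FPKM in the wild type at 38 °C, against 128 to 268 at 22 °C. Their part in the DRG values was not tested. In whole flowers fewer cells of a type and less RNA per cell cannot be told apart.

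The neighbours of the members did not share the size of the change of AT1G72660. TRFL6, whose annotated end lies just before AT1G72660, averaged 21.9 FPKM in the mutant at 38 °C, against 20.7 at 22 °C, and 31.6 FPKM in the wild type at 38 °C, against 20.5 at 22 °C. IQD8 on its other side averaged 22.6 FPKM in the mutant at 38 °C, against 24.0 at 22 °C, and 17.2 FPKM in the wild type at 38 °C, against 19.5 at 22 °C. TRFL3 before AT1G17470 averaged 20.3 FPKM in the mutant at 38 °C, against 12.0 at 22 °C, and 23.9 FPKM in the wild type at 38 °C, against 11.2 at 22 °C. IQD7 after AT1G17470 averaged 12.2 FPKM in the mutant at 38 °C, against 10.9 at 22 °C, and 8.82 FPKM in the wild type at 38 °C, against 9.21 at 22 °C. Both TRF-like genes thus had a higher mean at 38 °C in both genotypes, IQD8 a lower one in both and IQD7 a higher one in the mutant only. By ratio of means TRFL3 rose more with heat than AT1G17470 in both genotypes. The spread of the neighbours is not given here. The neighbours of AT4G39520 were CYP96A12, at 10.1 FPKM in the mutant at 38 °C, against 9.56 at 22 °C, and at 9.02 FPKM in the wild type at 38 °C, against 10.9 at 22 °C, and AT4G39530, at 1.81 to 2.14 FPKM in all 4 groups.

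The genes whose level followed AT1G72660 most closely over the 12 libraries were chaperone genes and a splicing factor gene. By Pearson's r of log2(FPKM + 1) they were AT1G53540, a small heat shock protein of the HSP20 type (0.998), SR30, a serine-arginine splicing factor (0.997), HSP22.0 and HSP17.6II, both small heat shock proteins (0.996 each), and AT5G48570, an FKBP-type peptidyl-prolyl isomerase (0.995). AT1G53540 averaged 78.4 FPKM in the mutant at 38 °C, against 0.639 at 22 °C, and 164 FPKM in the wild type at 38 °C, against 0.728 at 22 °C. SR30 averaged 217 FPKM in the mutant at 38 °C, against 94.7 at 22 °C, and 273 FPKM in the wild type at 38 °C, against 92.2 at 22 °C. An r over 0.9 was reached by 1399 of 23584 genes (5.93%), and all genes share the same libraries and 4 groups.

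AT1G17470 was followed most closely by ATMG00960, a cytochrome c assembly gene of the mitochondrial genome, TOC33, a subunit of the chloroplast import machinery, UBA2A, an RNA-binding protein gene, AT1G21350 and AT2G24160 (r from 0.982 to 0.977). AT4G39520 was followed by AT5G53080, a tetratricopeptide repeat gene, RLP35, emb1703, AT5G27895.1 and AT1G58889.1 (r from 0.989 to 0.988). Some of these genes were read at low levels. The group means ran from 0.231 to 1.09 FPKM for RLP35, 1.55 to 3.58 for AT2G24160 and 0.684 to 6.8 for ATMG00960. Others were well read, such as TOC33 at 44.9 to 63.0 FPKM. Between the members themselves r was 0.93 for AT1G72660 with AT1G17470, 0.97 for AT1G72660 with AT4G39520 and 0.94 for AT1G17470 with AT4G39520. Many other genes were closer. Of 23584 genes AT1G17470 was 863rd and AT4G39520 150th in likeness to AT1G72660, and AT4G39520 was 250th in likeness to AT1G17470. An r over 0.9 was reached by 3.98% of genes with AT1G17470 and 5.33% with AT4G39520.

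The changes of the candidate partners of the DRG proteins did not pass in the fit used here, and that of AT1G51730 with heat in the wild type depended on the setting. AT2G20280, a zinc finger protein like the human partner DFRP1, averaged 61.5 ± 2.70 FPKM in mutant flowers at 38 °C, against 62.1 ± 5.53 at 22 °C, and 62.8 ± 1.38 FPKM in wild-type flowers at 38 °C, against 56.8 ± 0.734 at 22 °C. AT1G51730, an RWD-domain protein like the human partner DFRP2, averaged 67.0 ± 3.27 FPKM in mutant flowers at 38 °C, against 60.5 ± 6.60 at 22 °C, and 72.9 ± 5.76 FPKM in wild-type flowers at 38 °C, against 57.4 ± 2.90 at 22 °C (SD, n = 3 each). The role of a partner is known from yeast and human, not from these plants. Neither passed in edgeR in any of the 5 comparisons, where 11.3% of all tested genes rose with heat in the mutant and 14.3% in the wild type. On FPKM every heated wild-type library was above every unheated one for both, as for 27% of genes. The ratio of means was 1.11 for AT2G20280 and 1.27 for AT1G51730. In the mutant the heated and unheated libraries overlapped for both. The nearest was AT1G51730 with heat in the wild type, at 0.25 (SE 0.09) and an adjusted p of 0.0507, where 1 of the 2 had an unadjusted p below 0.05 and 1 passed in DESeq2, and in the other 4 comparisons neither was so in either test. Scaling on reference genes put AT2G20280 at 0.39 (adjusted p = 0.00403) and AT1G51730 at 0.59 (adjusted p = 9.28e-04) with heat in the wild type. Both then passed in edgeR, where 7842 of 23585 tested genes rose with that scaling. AT1G51730 passed in 11 of 23 alternatives of that comparison, among them DESeq2 size factors, limma on FPKM and only the groups compared, with an adjusted p of up to 0.173 in the others.

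Other GTPases of the Obg group and its relatives act in ribosome assembly and in organelles. With heat in the mutant 1 of 8 tested rose and none fell, namely NOG1-2, a gene for a large-subunit assembly GTPase (0.59, SE 0.14, adjusted p = 0.0125 in edgeR). With heat in the wild type 2 of 8 rose and none fell, NOG1-1 by 0.27 (SE 0.07, adjusted p = 0.0151) and OBGM, a mitochondrial type, by 0.51 (SE 0.15, adjusted p = 0.0234). YCHF1, the most highly read of the list, stood at -0.19 in the mutant and -0.14 in the wild type and did not pass. The median of the list was 0.28 in the mutant and 0.26 in the wild type, against 0 and -0.05 for all tested genes, of which 11.3% rose in the mutant and 14.3% in the wild type. Between genotypes none of the 8 passed at either temperature or in the difference of heat responses in edgeR or DESeq2, and 1 at 38 °C had an unadjusted p below 0.05. Both wild-type calls were lost without replicate 1 at 22 °C or replicate 2 at 38 °C, that of OBGM also without replicate 2 at 22 °C, and the mutant call when only the groups compared were fitted. Scaling on reference genes gave 5 rises in each genotype, where 6000 of 23585 tested genes rose in the mutant and 7842 in the wild type.

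The next list held genes of ribosome collision sensing, rescue and nascent-chain quality control, of which 12 of 13 were read well enough to be tested. With heat in the mutant 3 of 12 tested rose and none fell: ABCF1, an ABC-F ATPase, by 0.42 (SE 0.07, adjusted p = 0.00219), GCN20, an ABC-F partner of GCN1, by 0.33 (SE 0.08, adjusted p = 0.0126) and GCN1 itself by 0.29 (SE 0.08, adjusted p = 0.0270). With heat in the wild type 6 of 12 rose and none fell. Among them were an ASCC3-like helicase gene, AT5G61140, at 0.44 (SE 0.07, adjusted p = 7.89e-04) and GCN1 at 0.46 (SE 0.08, adjusted p = 0.00164). A LISTERIN ubiquitin ligase gene, AT5G58410, stood at 0.38 (SE 0.07, adjusted p = 0.00224) and GCN20 at 0.41 (SE 0.08, adjusted p = 0.00293). The share of all tested genes that rose was 11.3% in the mutant and 14.3% in the wild type, and the median of the list was 0.17 and 0.26, against 0 and -0.05 for all genes. The call of GCN1 in the mutant was lost without replicate 1 or 3 of the mutant at either temperature, and that of GCN20 without replicate 1 of the mutant at 22 °C. Without the 3 libraries that stood apart GCN1 did not pass in the mutant either (adjusted p = 0.127 in edgeR), though 3 of the 12 genes still passed. Scaling on reference genes gave 10 rises in each genotype, where 6000 of 23585 tested genes rose in the mutant and 7842 in the wild type.

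At 38 °C 1 of the 12 rescue genes was higher and 1 lower in the mutant, ABCF1 by 0.33 (SE 0.07, adjusted p = 0.0164) and AT5G61140 by -0.30 (SE 0.07, adjusted p = 0.0176) in edgeR, where 4.36% of all tested genes were higher and 5.26% lower. ABCF1 averaged 122 ± 9.00 FPKM in mutant and 94.4 ± 6.69 FPKM in wild-type flowers there, and AT5G61140 averaged 11.6 ± 1.19 FPKM in mutant and 13.8 ± 0.173 FPKM in wild-type flowers. ABCF1 thus lay on the other side of the wild type from the 3 DRG genes. The call of ABCF1 was lost without replicate 1 or 3 of either genotype at 38 °C (adjusted p from 0.0574 to 0.0814), and that of AT5G61140 without replicate 1 of the wild type or replicate 2 of the mutant at 38 °C (adjusted p = 0.0688 and 0.0567). Without the 3 libraries that stood apart AT5G61140 did not pass (adjusted p = 0.0566 in edgeR), which left 1 of 12. None of the 12 passed at 22 °C or in the difference of heat responses in edgeR, where 0 and 3 had an unadjusted p below 0.05 and 0 and 2 passed in DESeq2.

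The general translation GTPases held members that passed in both directions. With heat in the mutant 2 of 11 rose and 2 fell: the eIF5B subunit-joining factor AT1G76810 (0.29, SE 0.07, adjusted p = 0.00968) and the eIF5B-like AT1G76820 (0.75, SE 0.15, adjusted p = 0.00419) rose, and the elongation factor 1A genes AT1G07920 (-0.30, SE 0.07, adjusted p = 0.0117) and AT1G07940 (-1.81, SE 0.53, adjusted p = 0.0286) fell. With heat in the wild type 3 of 11 rose, AT1G76810 by 0.38 (SE 0.07, adjusted p = 0.00141), AT1G76720 by 0.44 (SE 0.09, adjusted p = 0.00458) and AT1G76820 by 0.61 (SE 0.15, adjusted p = 0.00872). In the wild type 2 fell, AT1G07920 by -0.36 (SE 0.07, adjusted p = 0.00321) and LOS1, the elongation factor 2 gene, named after its value was seen, by -0.23 (SE 0.07, adjusted p = 0.0355). Of all tested genes 11.3% rose and 13.6% fell in the mutant, and 14.3% rose and 16.4% fell in the wild type. The elongation factor 1A genes are near-identical copies whose reads may have been split between them, and AT1G07940 spread widely at 22 °C (264 ± 145 FPKM in the mutant) and lost its call without replicate 1 or 2 at 22 °C or any one replicate at 38 °C of the mutant. Without the 3 libraries that stood apart it did not pass either (adjusted p = 0.154 in edgeR), which left 3 of 11. With scaling on reference genes AT1G07920 stood at -0.05 in the mutant and -0.02 in the wild type and did not pass. The median of the list was 0.02 in the mutant and -0.03 in the wild type, and 0.27 and 0.31 with that scaling. None of the 11 passed between genotypes or in the difference in edgeR or DESeq2, and 1 had an unadjusted p below 0.05 in each of these 3 comparisons.

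**Figure D5:**
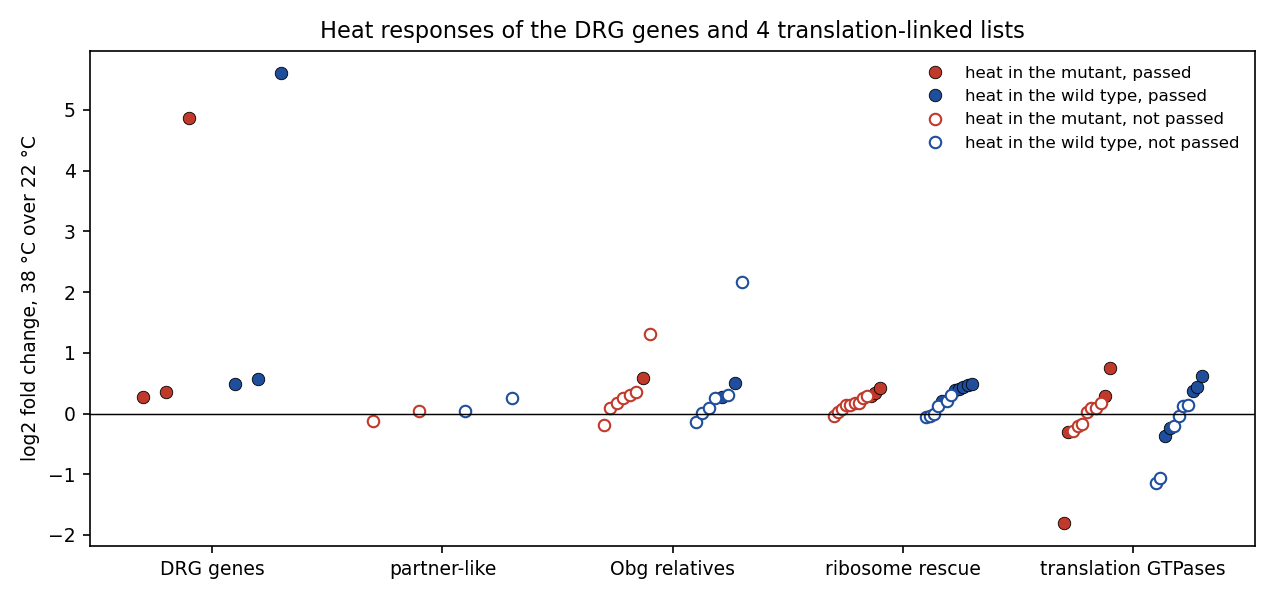
Log2 fold change with heat (38 °C over 22 °C) of each tested gene in 5 lists, with the mutant left of the wild type in each list and filled points for genes that passed in edgeR. AT1G72660 stands alone at 4.87 in the mutant and 5.61 in the wild type, and the filled points of the other lists lie between -1.81 and 0.75.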

How the data were processed

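RNA was sequenced from 12 flower libraries in 4 groups. Per the submitters' processing notes, HISAT2 2.0.4, StringTie 1.3.4d, cutadapt 1.9 and the TAIR10 build were used, with roles not stated. The deposited expected counts are estimated counts per gene, unscaled; in genes with 1 transcript, 47.2% of the values from 1 to 20 can be divided by 4, where 25% would be even, so the number of fragments is not known. The deposited FPKM values were scaled by the authors to length and depth. Whether counting used strand is not stated. Levels are FPKM, means ± SD.

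Counts rounded to whole numbers were fitted by edgeR 4.0.16 under R 4.3.3 (quasi-likelihood, filterByExpr at a minimum count of 10, TMM, 1 mean per group, 8 residual degrees of freedom). Of 27715 genes 23585 were tested, two-sided, with Benjamini-Hochberg adjustment over all of them and a threshold of 0.05. All 3 members passed the filter. Members and lists were chosen with earlier results of these data known. Named list genes were up to 4 per list with the smallest p in each comparison. Alternatives used DESeq2 1.42.0 and limma 3.58.1. On simulated data for heat in the wild type, 6% of genes changed 1.5-fold, 38.8% of those changed 2-fold and 100% of those changed 4-fold were recovered. The simulation changed 200 genes and gave every gene the same spread. The real genes differ in spread, so these shares do not carry over to single genes.

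Same-numbered replicates did not in general deviate together (r from -0.28 to 0.266 over 18 pairs, 2 of them above 0.1). The 3 libraries that stood apart deviated in part together (r = 0.266, 0.228 and 0.146 between them). Coding sequences and upstream windows came from RefSeq TAIR10.1, whose positions overlapped those of the table for all 24817 matched genes. Upstream windows are reported for AT1G72660 and AT1G17470.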

Additional observations from a re-analysis of the deposited data

How the results depend on the processing

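The members kept the sign of their change in 23 of 23 alternatives in each comparison but that at 22 °C, where AT1G72660 kept it in 13 and AT1G17470 in 22. Heat in the wild type gave AT1G72660, AT1G17470 and AT4G39520 log2 changes of 4.96, 0.57 and 0.66 with limma on log2(FPKM + 1), with or without the filter, 0.58 and 0.67 for the last pair with a pseudocount of 0.1, and 5.95, 0.82 and 0.92 with scaling on reference genes. Fitted on the groups compared alone, AT4G39520 stood at 0.64. Heat in the mutant gave 4.24, 0.38 and 0.46 with limma, 0.39 and 0.47 with the smaller pseudocount, and 5.11, 0.53 and 0.61 with reference scaling. That scaling gave AT4G39520 -0.36 between genotypes at 38 °C, and -0.29 for AT1G17470 and -0.31 for AT4G39520 in the difference of heat responses. It also turned the elongation factor 1A gene AT1G07930 with heat in the wild type to 0.31 (adjusted p = 0.025), against -0.03. It raised the share of higher calls to 88.5% in the wild type, against 46.6%, and to 86.2% in the mutant, against 45.4%, and lowered it to 23.9%, against 45.3%, at 38 °C and to 5.03%, against 25.7%, in the difference. The causes were not tested.

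Leaving out each library in turn gave 0.44 to 0.57 for AT1G17470 and 0.55 to 0.64 for AT4G39520 with heat in the wild type, -0.12 to 0 for AT1G17470 at 22 °C and -0.29 to -0.16 for it in the difference. The number of genes called ran from 25 to 52 at 22 °C, 1016 to 2713 at 38 °C and 60 to 499 in the difference. DESeq2 called 247, 4035 and 1842 genes there, against 45, 2269 and 374 in edgeR. Without the 3 libraries that stood apart the difference had 24 calls, and heat in the mutant fitted on its own groups had 3721, against 5875. With the replicate number as a block the difference had 128 calls, and the replicate numbers were not found to pair the samples. AT1G72660 made up 1.65% of the family's counts in the mutant and 1.58% in the wild type at 22 °C. Counts near multiples of 4 leave the counting error unknown. A change of 1.5-fold was rarely recovered in the simulation, where every gene had the same spread. In the real fit some smaller changes passed, such as that of NOG1-1 with heat in the wild type (1.2-fold, adjusted p = 0.0151 in edgeR).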
